A study of Mus musculus with 9 samples.

Results

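The 10 genes described here are Xbp1 and 9 genes of protein folding and quality control in the endoplasmic reticulum (ER). They are Hspa5, Hsp90b1, Calr, Pdia4, Creld2, Dnajb9, Sdf2l1, Herpud1 and Edem1, and they were taken by name from the 24318 genes in each expression table. All 10 were present in both tables and passed the filter on low values. RNA came from N2A cells, a mouse neuroblastoma line, transfected with a scramble siRNA (siScramble) or with siRNA against EXOSC3 (siEXOSC3), a subunit of the RNA exosome, or DDX1 (siDDX1), a putative RNA helicase. All 9 libraries, 3 for each siRNA, thus came from transfected cells of 1 line that received no other treatment. The replicates were separate plates, and the data hold RNA levels after a transient knockdown. Each table paired the 3 libraries of 1 knockdown with the same 3 scramble libraries, so both knockdowns share their controls. Values are FPKM (fragments normalized for transcript length and library size).

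When unfolded proteins build up in the ER, 3 sensors in its membrane (IRE1, PERK and ATF6) start the unfolded protein response. IRE1 cuts a short intron out of Xbp1 mRNA in the cytoplasm, and the tRNA ligase complex, with RTCB as its ligase and DDX1 as a subunit, joins the ends. The joined mRNA encodes the active transcription factor, which together with ATF6 drives genes for ER chaperones, folding enzymes and ER-associated degradation. The comparison of each knockdown with scramble therefore asks whether the RNA of Xbp1 and of genes known to respond to it differed when a subunit of that ligase complex, or the RNA exosome, was depleted.

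The stretch of Xbp1 that this splicing acts on is printed first, because the gene-level FPKM does not separate the mRNA with it from the mRNA without it. In the GENCODE vM1 annotation of NCBIM37, the sequence of mm9, the intron has 26 bases at chr11:5424285-5424310 on the plus strand, inside exon 4 of 5 of the transcript Xbp1-001 and within its coding sequence. The line below covers chr11:5424261-5424334, 5′ to 3′, with the intron in capitals.
Xbp1 intron: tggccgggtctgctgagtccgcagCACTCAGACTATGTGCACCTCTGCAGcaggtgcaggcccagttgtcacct
The annotated coding sequence has 804 bases in Xbp1-001, which keeps the intron, and 1116 bases in Xbp1-201, in which the 2 flanks are joined. The values below are those of Xbp1 as a gene, and how much of its RNA was spliced was not measured. Whether reads across the joined ends were counted is not known.

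Many ER chaperone genes carry an ER stress response element (ERSE) near their start, where ATF6 and XBP1 act with the factor NF-Y. Promoter windows from 250 bases before to 50 bases after the annotated start were taken from RefSeq (GRCm38.p6) and searched on both strands for ERSE (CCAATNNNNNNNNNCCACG), ERSE-II (ATTGGNCCACG) and the core ACGTG. ERSE was found in 39 of 32851 promoters (0.119%), ERSE-II in 12 (0.0365%) and ACGTG in 6447 (19.6%). Among the 10 genes, Hspa5, Hsp90b1, Calr and Creld2 held an ERSE, and Hsp90b1 held 2. Herpud1 held an ERSE-II. The 6 windows of these 5 genes are shown because they hold the known response elements found among the 10 genes. Each is given 5′ to 3′ on the strand of its gene with the element in capitals.
Hspa5 ERSE: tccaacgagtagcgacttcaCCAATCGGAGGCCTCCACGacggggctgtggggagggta
Hsp90b1 ERSE, distal: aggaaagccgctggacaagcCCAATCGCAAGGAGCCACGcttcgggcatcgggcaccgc
Hsp90b1 ERSE, proximal: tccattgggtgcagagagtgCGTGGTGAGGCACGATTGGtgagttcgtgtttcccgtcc
Calr ERSE: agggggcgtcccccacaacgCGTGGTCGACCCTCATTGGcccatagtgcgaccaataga
Creld2 ERSE: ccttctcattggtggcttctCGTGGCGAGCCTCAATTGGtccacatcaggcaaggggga
Herpud1 ERSE-II: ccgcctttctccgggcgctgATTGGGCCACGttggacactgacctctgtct
The windows lie at chr2:34772005-34772063 (plus) for Hspa5, chr10:86705618-86705676 and chr10:86705513-86705571 (minus) for Hsp90b1, chr8:84847055-84847113 (minus) for Calr, chr15:88819500-88819558 (plus) for Creld2 and chr8:94386357-94386407 (plus) for Herpud1. The element ran along the gene in Hspa5, Herpud1 and the distal copy of Hsp90b1, and against it in Calr, Creld2 and the proximal copy of Hsp90b1. The ACGTG core was in the windows of Hspa5, Calr, Dnajb9 and Herpud1, where it overlaps the ERSE-II. None of the 3 motifs was in the windows of Xbp1, Pdia4, Sdf2l1 and Edem1, which says only that these letters are not in these windows.

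**Figure D1:**
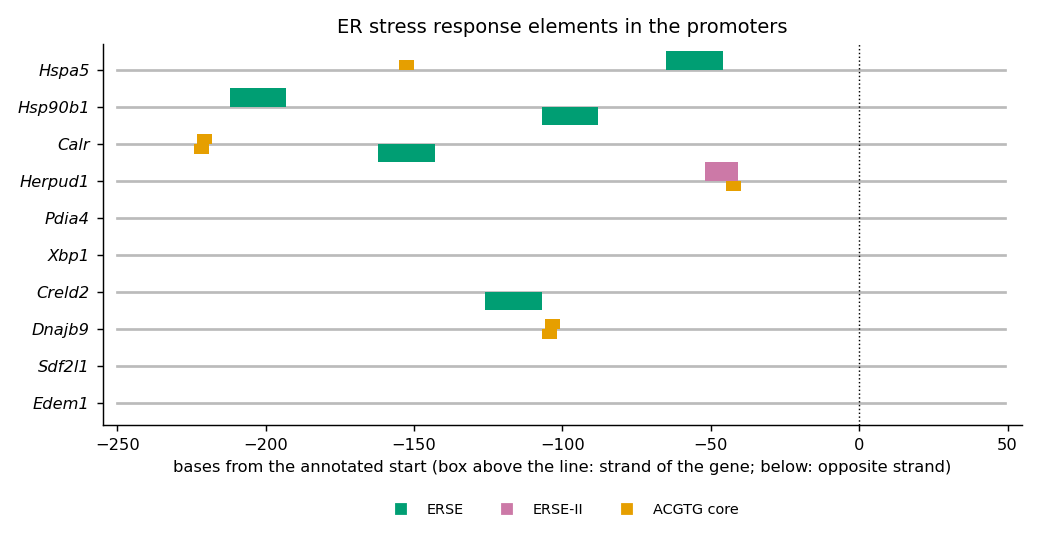
Position of ERSE, ERSE-II and ACGTG matches in the promoter window of each of the 10 genes, in bases from the annotated start (x axis). Boxes above a line lie on the strand of the gene and boxes below it on the opposite strand, and the ERSE and ERSE-II boxes lie between -212 and -42.

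The labels were checked on the depleted genes. Exosc3 was at 6.84, 7.68 and 6.01 FPKM in the siEXOSC3 libraries against 45.8, 43.8 and 42.7 in scramble. Ddx1 was at 28.05, 28.7 and 34.8 FPKM in siDDX1 against 130, 126 and 119 in scramble, which is 22.4, 22.9 and 27.8% of the scramble mean. Both target RNAs were thus low in every library of their own knockdown, and siDDX1 replicate 3 kept the most Ddx1. Log2 values of libraries of 1 group correlated at r = 0.983 or above, as a description across genes. Of 10 neuronal and neuroblastoma markers, 8 had a mean of at least 1 FPKM in each group, and 0 of 7 fibroblast markers did. Of 5 macrophage and leukocyte markers 1 did in scramble (Cd68, at 1.18 FPKM in the siEXOSC3 table) and 0 in the knockdowns, and of 6 astrocyte and oligodendrocyte markers 1 or 2 did, with Mbp at 2.12 FPKM in scramble. The summed neuronal markers ran from 590 to 624 FPKM in scramble and from 1094 to 1202 in siEXOSC3 in 1 table, and from 585 to 617 and 624 to 656 (siDDX1) in the other. Of the 8 neuronal markers tested, 5 increased in siEXOSC3, where 16.7% of all genes tested did. The log2 fold changes of the 8 ran from -0.48 to 1.56, with a median of 0.73. In siDDX1, where 10.6% of all genes tested passed, Gap43 and Chgb increased and Ina decreased, with a median over the 8 of -0.08. The part of these markers in the results below was not tested. FPKM does not hold read numbers, so the depth is unknown.

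In scramble cells the 10 genes fell into a group of very abundant chaperone RNAs and a group of moderate ones. Levels are compared per length, as FPKM means of the 3 scramble libraries in the siEXOSC3 table. Hspa5 (chr2:34627490-34632051), which encodes the ER HSP70 chaperone BiP, had 559 ± 71.2 FPKM (SD, n = 3). Hsp90b1 (chr10:86152954-86168254), which encodes the ER HSP90 chaperone GRP94, had 555 ± 46.96. Calr (chr8:87365749-87370833), which encodes calreticulin, the soluble lectin chaperone of glycoproteins, had 501 ± 15.5. These 3 lay at or above percentile 98.3 of all genes tested, and neighbours among them overlapped in range, so their order does not exceed the spread.

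A wide gap separated them from the rest, since the lowest Calr library was at 483 FPKM and the highest Herpud1 library at 91.0. Herpud1 (chr8:96910338-96919277), a membrane component of ER-associated degradation, had 88.3 ± 3.85 FPKM, and the disulphide isomerase gene Pdia4 (chr6:47746141-47763511) had 82.1 ± 4.72, with overlapping ranges. Xbp1 (chr11:5420662-5425896) had 61.2 ± 2.19. Next came Creld2 (chr15:88650076-88657111), a secreted ER stress-inducible disulphide isomerase-like protein, at 48.1 ± 1.92. The BiP cochaperone gene Dnajb9 (chr12:45306884-45311055) had 40.5 ± 2.94 and the chaperone cofactor gene Sdf2l1 (chr16:17130231-17132476) 39.6 ± 4.01, again with overlapping ranges. Edem1 (chr6:108778635-108809350), which marks misfolded glycoproteins for degradation, was lowest at 32.6 ± 0.929. Neighbours in this order did not overlap from Pdia4 to Xbp1, Xbp1 to Creld2, Creld2 to Dnajb9 and Sdf2l1 to Edem1. The same neighbours overlapped or not in the siDDX1 table. Gene positions are on NCBIM37. The libraries do not keep the strand, and 632 exon bases of Hsp90b1 also belong to other annotated genes, so part of its value cannot be told apart from theirs.

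**Figure D2:**
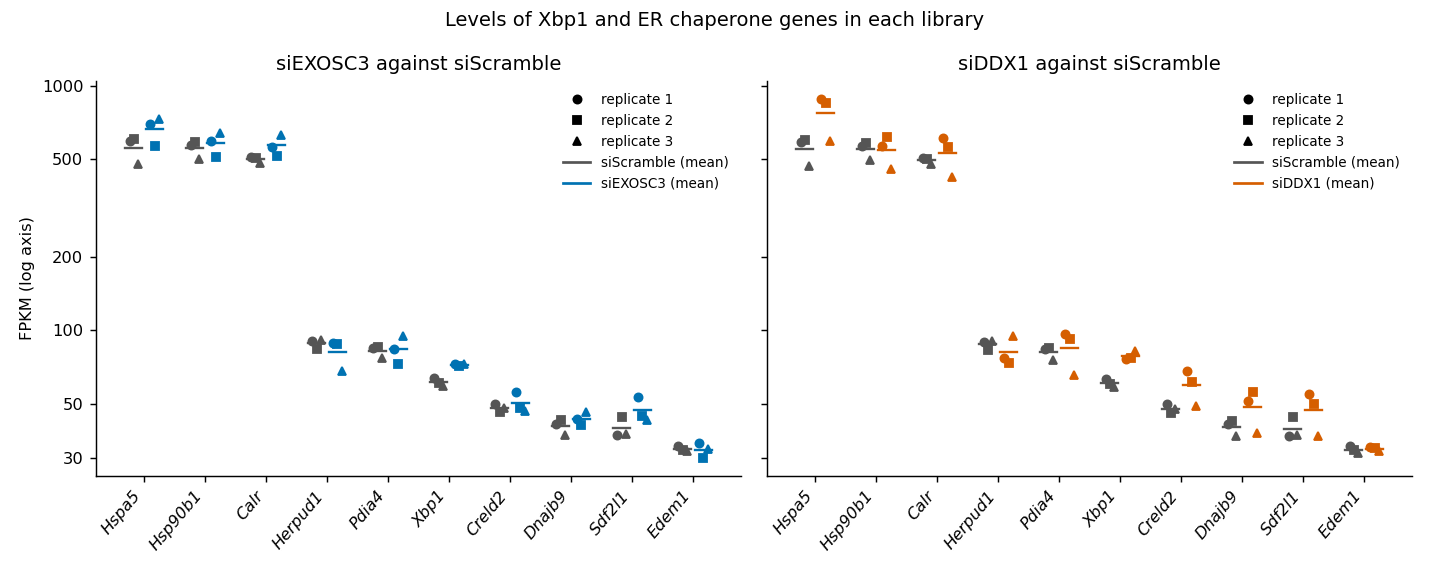
FPKM of each gene in each library (y axis, log scale) in the siEXOSC3 table (left) and the siDDX1 table (right), ordered by scramble level, with symbols for replicates and horizontal bars for group means. Xbp1 stands apart from scramble in all 3 libraries of both knockdowns, while siDDX1 replicate 3 (triangles) is the lowest siDDX1 library for most of the other genes.

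Xbp1 was the 1 gene of the 10 that passed the test in siEXOSC3 cells, and its rise was modest. Xbp1 was at 72.3, 71.2 and 72.9 FPKM in siEXOSC3 and at 63.6, 60.7 and 59.3 in scramble. Every siEXOSC3 library lay above every scramble library. In bulk RNA, more cells with a transcript and more of it in each cell cannot be told apart. The level was 118% ± 1.42 (SD, n = 3) of the scramble mean, with a log2 fold change of 0.23 ± 0.06 (SE) and an adjusted p of 0.0192 (limma, Benjamini-Hochberg over all genes tested). Over the whole table, a share of 32.4% of 11242 tested genes passed this threshold, 16.7% increased and 15.7% decreased, so 1 of 10 is below the background. Groups did not overlap for 2 of the 10 genes, Xbp1 and Calr, against 49.7% of all genes tested. Among the fits that each left out 1 library, the call for Xbp1 held in 2 of 6, with adjusted p between 0.0169 and 0.0722 and a log2 fold change between 0.21 and 0.26. It was lost without siEXOSC3 replicate 1 (adjusted p = 0.0698, limma) and without scramble replicate 1, 2 or 3 (0.0540, 0.0681 and 0.0722).

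The major chaperone genes had higher means in siEXOSC3 but did not pass the test. Hspa5 was at 700, 566 and 732 FPKM against 596, 605 and 477 in scramble. Its groups overlapped, and the log2 fold change of 0.25 had a 95% interval from -0.04 to 0.54 (adjusted p = 0.156, limma). Calr was at 562, 517 and 631 FPKM against 512, 507 and 483. The groups did not overlap, and the log2 fold change was 0.18 (-0.01 to 0.38, adjusted p = 0.134, limma). Hsp90b1, at 594, 514 and 640 FPKM against 572, 591 and 502, had 2 libraries above the scramble range and 1 inside it. Its log2 fold change was 0.07 (-0.17 to 0.30). In all 3 genes siEXOSC3 replicate 2 was the lowest of the knockdown libraries. Without that replicate 43.5% of all genes passed, and so did 3 of the 10 genes: Xbp1, Hspa5 (log2 fold change 0.36, adjusted p = 0.0306, limma) and Calr (0.25, adjusted p = 0.0413). Some other omissions lowered the values, to 0.14 for Hspa5 without scramble replicate 3 (adjusted p = 0.424, limma) and to 0.11 for Calr without siEXOSC3 replicate 3 (0.304). Others raised them without a call, to 0.31 for Hspa5 without scramble replicate 2 and 0.20 for Calr without scramble replicate 1.

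The folding enzymes and cochaperones overlapped scramble as well. Sdf2l1 was at 53.3, 44.5 and 42.9 FPKM in siEXOSC3 against 37.2, 44.3 and 37.5. Its interval lay just above 0 (log2 fold change 0.24, 0.0015 to 0.47), but the adjusted p over all genes was 0.108 (limma). With 1 library left out, its log2 fold change ran from 0.14 to 0.32. Dnajb9 was at 43.2, 40.8 and 46.4 FPKM against 41.4, 42.9 and 37.3, a log2 fold change of 0.10 (-0.08 to 0.28). With 1 library left out, that value ran from 0.04 to 0.14. Pdia4 was at 83.9, 72.5 and 94.4 FPKM against 84.6, 85.1 and 76.7, and its interval ran from -0.21 to 0.24. Creld2 was at 55.95, 48.0 and 46.6 FPKM against 50.04, 46.2 and 47.9, with an interval from -0.13 to 0.24. The ranges of both genes overlapped those of scramble.

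Neither degradation gene passed the test in siEXOSC3. Herpud1 was at 88.9, 87.5 and 67.7 FPKM against 89.9, 83.9 and 91.0 in scramble. Only siEXOSC3 replicate 3 lay below the scramble range, and the log2 fold change of -0.13 had an interval from -0.37 to 0.12 (adjusted p = 0.382, limma). Without that replicate the log2 fold change was -3.0e-05. Edem1 was at 34.4, 30.04 and 32.6 FPKM against 33.7, 32.4 and 31.8, with a log2 fold change of -0.01 (-0.17 to 0.15). The median log2 fold change of the 10 genes was 0.08, against -0.01 over all genes tested, and ran from 0.05 without scramble replicate 3 to 0.15 without siEXOSC3 replicate 2. In the fit with all libraries, at an unadjusted p under 0.05 there were 2 of the 10, a smaller share than the 5102 of all 11242 genes tested.

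In siDDX1 cells Xbp1 rose again, and several chaperone genes had uneven values across the libraries. Xbp1 was at 76.3, 77.1 and 82.3 FPKM in siDDX1 and at 63.1, 60.2 and 58.6 in scramble. All 3 siDDX1 libraries lay above all scramble libraries. The level was 130% ± 5.39 (SD, n = 3) of scramble, a log2 fold change of 0.37 ± 0.06 (SE) with an adjusted p of 0.0114 (limma). Xbp1 was again the only 1 of the 10 genes past the threshold, where the whole table had 10.6% of 11104 genes (5.61% increased and 5.03% decreased). It was also the only 1 whose groups did not overlap, against 34.7% of all genes tested. Its call held in 4 of 6 fits without 1 library and was lost without scramble replicate 1 (adjusted p = 0.0520, limma) or scramble replicate 3 (0.0605), fits in which 158 and 160 of all genes passed. The size of the Xbp1 change in the 2 knockdowns was not compared by a test, since the tables share their controls and were scaled apart.

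Hspa5 had the highest mean relative to scramble, but its libraries differed widely. It was at 884, 852 and 594 FPKM in siDDX1 against 591, 600 and 471 in scramble. The first 2 libraries lay far above scramble, and the third lay within the scramble range. The mean was 140% ± 28.7 of scramble, with a log2 fold change of 0.47 (0.10 to 0.85) and an adjusted p of 0.0974 (limma). Quantile normalization lowered that log2 fold change to 0.25, below the 0.34 of Xbp1 and the 0.26 of Creld2 in that fit. Without siDDX1 replicate 1 it was 0.37, below the 0.39 of Xbp1. The other major chaperones differed less. Calr was at 610, 565 and 423 FPKM against 508, 504 and 477, so that its siDDX1 libraries lay on both sides of the scramble range (log2 fold change 0.08, -0.21 to 0.38). Hsp90b1 was at 566, 617 and 455 FPKM against 568, 586 and 496, also on both sides, with a log2 fold change of -0.02 (-0.30 to 0.26).

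Creld2, which holds an ERSE, was at 68.0, 61.1 and 48.9 FPKM in siDDX1 against 49.6, 45.9 and 47.4. Its first 2 libraries were above scramble and the third inside its range, with a log2 fold change of 0.30 (0.05 to 0.55) and an adjusted p of 0.114 (limma). Pdia4 went from 96.1 and 91.7 FPKM in replicates 1 and 2 to 65.2 in replicate 3, against 83.9, 84.4 and 75.8 in scramble. The replicates of this isomerase gene thus lay on both sides of scramble, and its log2 fold change was 0.03 (-0.28 to 0.34). Dnajb9 was at 51.2, 55.9 and 38.0 FPKM against 41.1, 42.6 and 36.8 (log2 fold change 0.25, -0.06 to 0.55). Sdf2l1 was at 54.9, 49.9 and 36.9 FPKM against 36.9, 43.9 and 37.0 (log2 fold change 0.24, -0.08 to 0.57). Both cofactor genes thus showed the same split between the first 2 libraries and the third.

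Herpud1 went the other way. It was at 76.8, 73.1 and 94.4 FPKM in siDDX1 against 89.2, 83.2 and 89.9 in scramble, so that replicates 1 and 2 lay below the scramble range and replicate 3 above it. Its log2 fold change was -0.11 (-0.33 to 0.11, adjusted p = 0.475, limma). Edem1 was at 33.2, 33.0 and 31.8 FPKM against 33.4, 32.2 and 31.5. This gene was the steadiest of the 10 across siDDX1 libraries, and the interval of its log2 fold change ran from -0.12 to 0.14. The median log2 fold change of the 10 genes was 0.16, against -0.00059 over all genes tested, and ran from 0.07 without siDDX1 replicate 1 to 0.29 without siDDX1 replicate 3. At an unadjusted p under 0.05 there were 3 of the 10 and 3345 of all 11104 genes tested, a similar share.

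**Figure D3:**
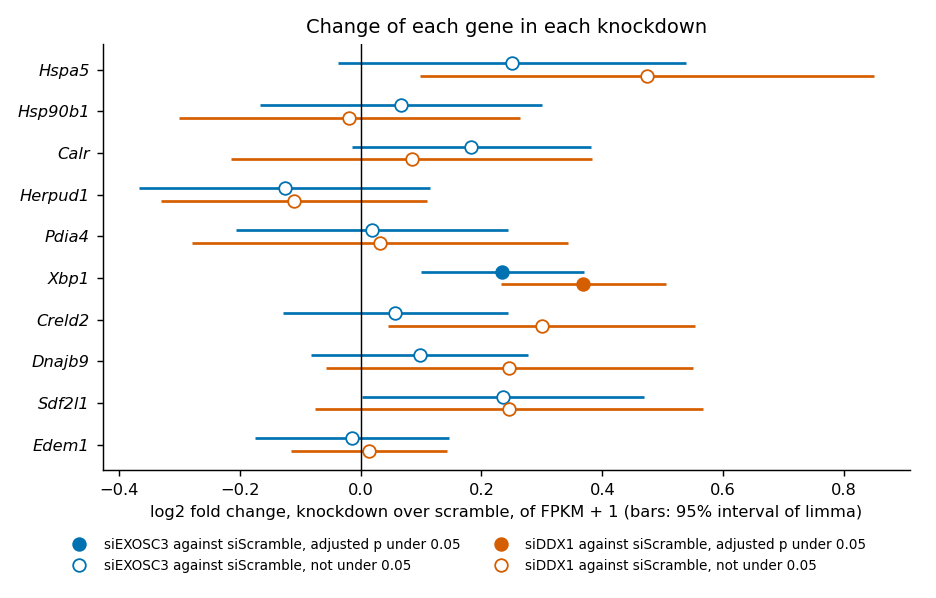
Log2 fold change of each gene (x axis, knockdown over scramble, of FPKM + 1) with its 95% interval from limma, in siEXOSC3 (blue) and siDDX1 (orange). Filled points, those of Xbp1, have an adjusted p under 0.05, and the intervals of the chaperone genes are wider in siDDX1 than that of Xbp1.

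Library by library, the chaperone genes of siDDX1 replicate 3 did not follow those of replicates 1 and 2. On the log2 scale, the median of the 10 genes relative to the scramble mean was 0.31, 0.26 and -0.05 in siDDX1 replicates 1, 2 and 3. In the same libraries 9, 9 and 4 of the 10 genes were above the scramble mean, while the median of all genes tested stayed between -0.0020 and 0.0051. Xbp1 was the highest of the 10 genes in replicate 3, at 136% of scramble, after 126 and 127% in the others. Hspa5 was at 160, 154 and 107%, and Herpud1 at 87.8, 83.6 and 108%. The median coefficient of variation of the 10 genes was 17.3% among siDDX1 libraries, against 8.98% for all genes tested. Among the scramble libraries of that table it was 5.09%, against 5.999% for all genes.

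Without siDDX1 replicate 3, 8 of the 10 genes passed the test, where 31.7% of all genes did. The increased genes were Xbp1, Hspa5 (log2 fold change 0.66, adjusted p = 0.00211, limma), Creld2 (0.43, 0.00191), Sdf2l1 (0.41, 0.00645), Dnajb9 (0.41, 0.00390), Calr (0.24, 0.0277) and Pdia4 (0.21, 0.0404). Herpud1 decreased, with a log2 fold change of -0.22 (adjusted p = 0.0230, limma). Hsp90b1 and Edem1 did not pass. Leaving out another siDDX1 library lowered several values instead. Dnajb9 fell to 0.13 without replicate 2. Without replicate 1, Sdf2l1 fell to 0.13, Creld2 to 0.20 and Calr to -0.02. Xbp1 was not lowered, at 0.39 without replicate 1 and 0.38 without replicate 2, and Herpud1 was at -0.07 and -0.04. The fit without replicate 3 leaves 2 siDDX1 libraries, and which of the 3 represents the knockdown was not tested. The library with the lower chaperone RNAs is also the one that kept the most Ddx1 RNA, and the part of that difference in the result was not tested. Scramble replicate 3 was low in these genes as well. In it 1 of the 10 was above the scramble mean, with Hspa5 lowest and Herpud1 highest. What the libraries numbered 3 have in common was not tested.

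The siEXOSC3 libraries were less uneven. Their medians over the 10 genes were 0.13, 0.0050 and 0.20 on the log2 scale, with 10, 5 and 7 genes above the scramble mean. Xbp1 varied least, at 118, 116 and 119% of scramble, a coefficient of variation of 1.204%. The median over the 10 genes was 10.5%, near the 9.44% of all genes tested. Scramble replicate 3 was low in the 10 genes as well, with 1 of them above the scramble mean, against 9 and 6 in scramble replicates 1 and 2.

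**Figure D4:**
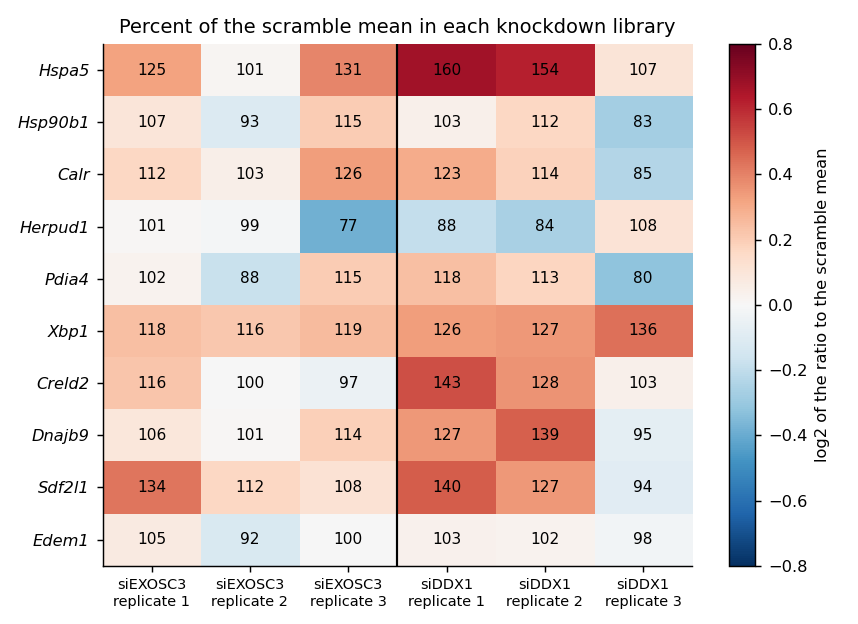
Level of each gene in each knockdown library as a percent of the mean of the scramble libraries in its table, with colour for the log2 of that ratio. In siDDX1 replicates 1 and 2 Hspa5 reaches 160 and 154% and Herpud1 lies below 100%, whereas in replicate 3 Xbp1 alone is far above 100%.

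The sensors upstream of these genes were measured next. Ern1, which encodes IRE1, was at 32.1, 25.2 and 33.0 FPKM in siEXOSC3 against 23.2, 26.7 and 24.4 (log2 fold change 0.26, adjusted p = 0.0893, limma). In siDDX1 it was at 27.9, 26.0 and 27.9 against 23.1, 26.5 and 24.1 (0.15, adjusted p = 0.196). Ern1 overlapped scramble in both knockdowns. Eif2ak3, which encodes PERK, was above scramble in every library of both knockdowns without passing, with a log2 fold change of 0.21 in siEXOSC3 (adjusted p = 0.0887, limma) and 0.22 in siDDX1 (0.120). Atf6 was at 50.7, 50.4 and 42.7 FPKM in siDDX1 against 40.01, 38.4 and 36.3, an increase of 0.32 on the log2 scale (adjusted p = 0.0439, limma). In siEXOSC3 its log2 fold change was 0.19 (adjusted p = 0.156, limma). Of the 6 tested sensor and protease genes, siDDX1 raised Atf6 and Mbtps2, the gene of a protease that releases ATF6 (log2 fold change 0.29, adjusted p = 0.0437, limma). In siEXOSC3, Mbtps1, the gene of the other such protease, decreased (-0.21, adjusted p = 0.0333, limma).

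Of the tRNA ligase complex, 5 genes were in the tables. Rtcb, the ligase, was at 93.8, 98.2 and 88.6 FPKM in siEXOSC3 against 112, 105 and 98.4 (log2 fold change -0.17, adjusted p = 0.110, limma). In siDDX1, Rtcb was at 124, 115 and 106 FPKM against 111, 104 and 97.3 (0.14, adjusted p = 0.252). The ligase gene itself therefore passed in neither knockdown. Zbtb8os, which encodes archease, a factor that helps the ligase, increased in siEXOSC3 (0.35, adjusted p = 0.0155, limma), and Fam98b, a subunit gene, decreased (-0.27, adjusted p = 0.0207). In siDDX1 the log2 fold changes were 0.19 for Zbtb8os (adjusted p = 0.122, limma) and -0.08 for Fam98b (0.475). Ddx1 was the gene of this list called in siDDX1, at a log2 fold change of -2.01 (adjusted p = 0.00010, limma), and its level in siEXOSC3 was 100% of scramble (0.0060, -0.15 to 0.17). The subunit gene Rtraf, listed as 2700060E02Rik, passed in neither, at 0.09 and 0.06.

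In the arm of the response that runs through PERK and ATF4, the stress-induced factor gene Ddit3 (CHOP) increased in both knockdowns. Ddit3 was at 633, 464 and 693 FPKM in siEXOSC3 against 413, 390 and 356 (log2 fold change 0.61, adjusted p = 0.0145, limma). In siDDX1 it was at 665, 598 and 451 FPKM against 410, 387 and 351 (0.56, adjusted p = 0.0420), with every library above scramble. Atf4 was at 727, 725 and 611 FPKM in siEXOSC3 against 825, 789 and 776 (-0.22, adjusted p = 0.0913, limma), with a log2 fold change of 0.04 in siDDX1 (adjusted p = 0.742). Of 11 tested genes, siEXOSC3 raised 2, Ddit3 and the mTOR inhibitor gene Ddit4, and lowered 1, the stress protein gene Nupr1. siDDX1 raised 4, among them Ddit3, Ddit4 and the asparagine synthetase gene Asns. The list medians were -0.14 and 0.20, against -0.01 and -0.00059 over all genes.

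Other ER chaperones and cochaperones were measured in 15 genes. In siEXOSC3 4 of them increased, led by Sil1, the nucleotide exchange factor gene of BiP (log2 fold change 0.68), the ER prolyl isomerase gene Fkbp11 (0.49) and Sec63, a J-domain partner of BiP at the translocon (0.33), and 2 decreased. In siDDX1 1 of 15 passed, Fkbp11, at 56.9, 44.0 and 40.9 FPKM against 25.4, 28.5 and 21.3 (0.88, adjusted p = 0.0100, limma). All siDDX1 libraries of Fkbp11 were above scramble, replicate 3 included. The list median was 0.08 in siEXOSC3 and 0.14 in siDDX1, and without siDDX1 replicate 3, 6 of 15 genes passed, in a fit where 31.7% of all genes did.

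Among 16 other disulphide and oxidoreductase genes, Ero1l, which encodes the oxidase that recharges the disulphide isomerases, increased in both knockdowns. Ero1l was at 266, 200 and 323 FPKM in siEXOSC3 against 125, 138 and 125 (log2 fold change 0.99, adjusted p = 0.0034, limma). In siDDX1 it was at 185, 237 and 196 against 124, 137 and 123 (0.68, adjusted p = 0.0079). This change was larger than that of any of the 10 genes in the same knockdown. In siEXOSC3 Tmx4 (0.88) was the next largest increase, and the transmembrane thioredoxin gene Tmx1 decreased in siEXOSC3 (-0.70) and in siDDX1 (-0.29). In all, 3 genes rose and 1 fell in siEXOSC3, and 2 rose (Ero1l and the disulphide isomerase gene Txndc5) and 1 fell in siDDX1.

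For other ER-associated degradation genes, 2 of 23 increased and 6 decreased in siEXOSC3, together 34.8%, near the 32.4% of all genes tested. Edem2, a relative of Edem1, increased (log2 fold change 0.35), while Vcp, the ATPase that pulls proteins from the membrane (-0.30), and the channel gene Derl1 (-0.29) decreased. In siDDX1 1 of 23 passed, and it was Edem2, at 18.5, 18.7 and 15.1 FPKM against 11.3, 13.2 and 10.9 (0.52, adjusted p = 0.0206, limma). Edem2 was thus above scramble in all libraries of a knockdown in which Edem1 overlapped it.

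In ER translocation and glycosylation, 2 of 31 genes passed in siEXOSC3, both increased, Sec61a2 (log2 fold change 0.52) and Srp72 (0.30). In siDDX1 4 of 30 increased (13.3%, near the 10.6% of all genes tested), among them the signal peptidase gene Spcs2 (0.32), the oligosaccharyltransferase subunit gene Ostc (0.29) and the translocon-associated gene Serp1 (0.27). Without siDDX1 replicate 3, 12 genes of the list passed, where 31.7% of all genes did.

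Over the 9 pathway lists, the share of tested genes that passed ran from 6.45 to 40% in siEXOSC3, against 32.4% of all genes tested, and from 4.35 to 36.4% in siDDX1, against 10.6%. The calls of these pathway genes rested on the libraries to different degrees. Among the 6 fits that each left out 1 siEXOSC3 or scramble library, those of Fkbp11, Sec63, Ero1l, Tmx4, Tmx1, Vcp and Sec61a2 held in 6, that of Derl1 in 5 and that of Ddit3 in 4. Zbtb8os, Fam98b, Ddit4, Nupr1, Sil1 and Edem2 held in 3, and Mbtps1 and Srp72 in 1. In siDDX1, Ddx1 held in 6 of 6 fits, Fkbp11 and Ero1l in 4, Ddit4 in 3 and Edem2 in 2. Atf6, Mbtps2, Ddit3, Asns, Txndc5, Tmx1, Spcs2, Ostc and Serp1 held in 1, the fit without siDDX1 replicate 3. Some calls were also lost under the 7 alternatives that kept all libraries. In siEXOSC3, Fam98b, Nupr1 and Edem2 held in 6 of 7, Sil1 in 5, and Mbtps1 and Srp72 in 4. In siDDX1, Txndc5 and Edem2 held in 6 of 7, Atf6, Mbtps2, Ddit3 and Spcs2 in 5, and Serp1 in 4. The other pathway genes named above as called held in 7 of 7.

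**Figure D5:**
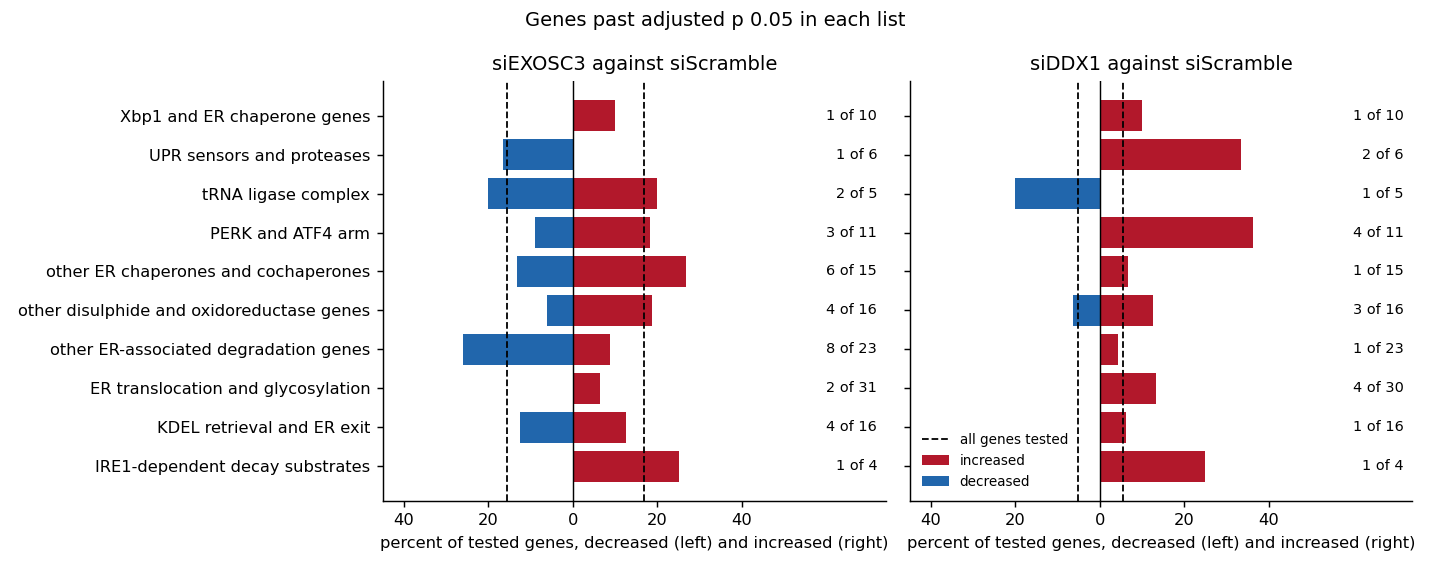
Share of tested genes in each list with an adjusted p under 0.05 (x axis, percent, decreased to the left and increased to the right) in siEXOSC3 and siDDX1, with the number called of those tested at the right and dashed lines for the share of all genes tested. Of the 10 genes, 1 passed in each knockdown.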

How the data were processed

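Total RNA was depleted of ribosomal RNA (Ribo-zero) and made into nondirectional libraries. The authors aligned reads to mm9 with TopHat2 2.1.0, sorted them with SAMtools and ran Cuffdiff 2.2.1, and deposited 2 tables of FPKM, with a row for each of 24318 genes. The annotation and library normalization are not given in the sources used here, and the tables were scaled separately, so each test stayed within a table.

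The deposited FPKM were taken to the log2(FPKM + 1) scale. Genes whose mean over the 6 libraries of a table reached 1 FPKM were tested with limma 3.58.1 in R 4.3.3 (intensity trend, no covariates), two-sided, with Benjamini-Hochberg adjustment over all genes tested and a threshold of 0.05. A count model was not used on FPKM. Fold changes are on the log2(FPKM + 1) scale, and intervals are at 95%. P-values measure the spread between plates. For groups of 3 and 3, the smallest p of an exact permutation test is 0.1.

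The 10 genes, the 9 pathway lists and the marker lists were chosen with earlier results of these data known. Named were the 10 genes, Exosc3, Ddx1, the sensors, Atf4, Ddit3, the tRNA ligase genes and, per list and knockdown, at most 3 called genes with the largest change. Per-library values of a few of these were added after they were seen. The gene Rtraf was matched through a RefSeq synonym, and 1 ligase complex gene was not matched. Motif searches used RefSeq promoters, and the Xbp1 intron was located by a script in GENCODE vM1 transcripts. The fit was tested on simulated data. Alternatives were quantile normalization or median centring of the libraries, a filter at 5 FPKM or none, a pseudocount of 0.1, a fit without the intensity trend, a replicate block, and the removal of each library in turn. The R-loop (DRIP-seq) data were not analysed here.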

Additional observations from a re-analysis of the deposited data

How the results depend on the processing

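In siEXOSC3, 3644 genes passed, and between 1610 and 4887 when 1 library was left out. In siDDX1, 1182 passed, 717 with no filter on low FPKM, 1893 with the replicate number as a block, and between 158 and 3524 when 1 library was left out. Of the 10 genes, 1 passed in siEXOSC3 (0 with the replicate block, 0 to 3 with 1 library left out) and 1 in siDDX1 (2 with the replicate block, 0 to 8 with 1 library left out). In the blocked fits, Xbp1 had an adjusted p of 0.0598 in siEXOSC3 and Hspa5 one of 0.0100 in siDDX1. The deviations of same-numbered libraries correlated at 0.03, -0.31 and -0.13 (siEXOSC3) and -0.01, 0.38 and 0.37 (siDDX1). In siDDX1, replicate 2 against scramble replicate 3 gave -0.38, and replicate 3 against scramble replicate 2 gave -0.37. The same numbers thus went together for replicates 2 and 3 of siDDX1, but not for replicate 1 or in siEXOSC3. The main fits used no block, and whether the siDDX1 plates were paired with scramble is not settled. Except for the block in siEXOSC3, the call for Xbp1 held under each of the alternatives that kept all libraries.

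Changes near 0 took the other sign under some settings. With quantile normalization these were Edem1 (0.0055) and Ddx1 (-0.0058) in siEXOSC3 and Pdia4 (-0.023), Calr (-0.049) and Atf4 (-0.18) in siDDX1. With centring on the median they were Edem1 in siEXOSC3 (0.0089) and Hsp90b1 in siDDX1 (0.0070). When 1 library was left out, the ranges in siEXOSC3 were -0.0034 to 0.15 for Hsp90b1, -0.058 to 0.036 for Edem1, -0.072 to 0.12 for Pdia4, -0.022 to 0.11 for Creld2 and -0.045 to 0.040 for Ddx1. In siDDX1 they were -0.11 to 0.11 for Hsp90b1, -0.0047 to 0.037 for Edem1, -0.071 to 0.21 for Pdia4, -0.022 to 0.24 for Calr and -0.0040 to 0.10 for 2700060E02Rik. The causes were not tested. Intervals of the chaperone genes in siDDX1 span changes of either sign for most of them, and the unknown depth leaves counting error unmeasured.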

Other observations

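Genes of KDEL retrieval and ER exit and substrates of IRE1-dependent decay, the process in which IRE1 cuts mRNAs other than Xbp1, were described by their counts. Sec24d, a cargo adaptor of COPII vesicles, increased in both knockdowns. It was at 15.4, 13.4 and 16.3 FPKM in siEXOSC3 against 10.5, 9.96 and 10.4, and at 15.2, 14.9 and 15.7 in siDDX1 against 10.4, 9.88 and 10.3. The log2 fold changes were 0.50 (adjusted p = 0.0046, limma) and 0.54 (0.0053), and both calls held in 6 of 6 fits without 1 library. In the list of 16 genes, 2 increased and 2 decreased in siEXOSC3 (25%, against 32.4% of all genes tested). In siDDX1, 1 increased (6.25%, against 10.6%). Kdelr2, a receptor that returns escaped chaperones to the ER, decreased in siEXOSC3 (-0.25), where it was called in 1 of 6 fits without 1 library and in 3 of 7 alternatives that kept all libraries. The cargo receptor subunit gene Mcfd2 increased (0.23), called in 1 of 6 and 4 of 7.

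Of 4 tested decay substrates, Pmp22 increased in siEXOSC3 (log2 fold change 0.70, adjusted p = 0.0016, limma) and Pdgfrb in siDDX1 (0.45, adjusted p = 0.0149). The call held in 6 of 6 fits without 1 library for Pmp22 and in 3 of 6 for Pdgfrb (adjusted p up to 0.0835, limma). Each was 1 gene of 4, where 32.4% (siEXOSC3) and 10.6% (siDDX1) of all genes tested passed. The list medians were 0.07 and 0.09.

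Among all genes with an ERSE in the RefSeq promoter window, 17 were tested in each table, 4 of them among the 10 genes. Their log2 fold changes ran from -0.27 to 0.35 in siEXOSC3, with a median of 0.11, and from -0.03 to 0.47 in siDDX1, with a median of 0.15. The 13 that are not among the 10 genes had the same medians, against -0.01 and -0.00059 over all genes tested. In siEXOSC3, 2 of the 17 passed (1 increased, 1 decreased), where 32.4% of all genes tested did. In siDDX1, 0 of the 17 passed in limma, against 10.6% of all genes tested, and 7 had an unadjusted p under 0.05, against 3345 of 11104 genes. The 8 tested genes with an ERSE-II ran from -0.35 to 0.46 in siEXOSC3, with a median of -0.03, and from -0.22 to 0.42 in siDDX1, with a median of -0.07. Of these 8, 1 increased and 1 decreased in siEXOSC3 (32.4% of all genes tested passed) and 2 increased in siDDX1 (10.6%).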
